A study of Arabidopsis thaliana with 12 samples.

Results

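UDP-glycosyltransferases, the UGT family of plant enzymes, were followed in *Arabidopsis thaliana* seedlings pretreated with a bacterial signal molecule and then exposed to a bacterial elicitor. Loci were taken from the 2 deposited comparison tables by name, as every locus with a gene called UGT followed by a number, a letter and a number, and *UGT74B1* and *UGT74C1* were left out. This gave 54 of 36101 loci with 56 UGT genes in 13 subfamilies. The rule uses names only and no measured value, although it was drawn up with earlier results of these data known. The labels give 12 libraries in 4 groups of 3, from 2-week-old seedlings that received oxo-C14-HSL (N-(3-oxotetradecanoyl)-L-homoserine lactone) at 6 µM, or acetone as its solvent, during a pretreatment of 3 days, and were all challenged with 100 nM flg22, a peptide of bacterial flagellin, for 2 h before harvest. The groups were *ali1* with oxo-C14-HSL, *ali1* with acetone, Col-0 with oxo-C14-HSL and Col-0 with acetone, where Col-0 is the wild type Columbia-0 and *ali1* is a T-DNA insertion line in At5g14470, a single line that the study describes as non-segregating. No group without flg22 was included, so every value below is a level under flg22.

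Expression is given in FPKM, fragments per kilobase of transcript scaled to sequencing depth, and the authors deposited a single value for each group over its 3 libraries. The spread between libraries cannot be seen in these values, no library could be left out, and the differences below carry no test. The authors' own test columns in the tables were not used here. Differences are given as log2 ratios of FPKM with 0.1 FPKM added to each group, which understates the change of low loci, for loci with a mean of at least 1 FPKM over both groups of a table. The word called is used below for a ratio of at least 2-fold. The tables of the *ali1* and Col-0 labels were normalized separately, and levels set side by side across labels carry that limit. *ALI1* itself, the gene disrupted in the mutant, had 30.1 FPKM with oxo-C14-HSL and 27.4 FPKM with acetone under the *ali1* label, against 11.1 and 14.98 FPKM under the Col-0 label. The higher value under the *ali1* label goes against the labels, and the description field of the samples also names the table of the other genotype. A value over the whole locus does not show whether the transcript is intact. By PCR on cDNA, the paper reports an *ALI1* band for Col-0 and none for *ali1*. Whether labels were exchanged was not tested, so groups are called below by the label of their libraries. Green leaf markers were abundant in all groups, and all 8 were detected. Of 9 root markers, 7 were found. They summed to 34.0 and 29.4 FPKM (oxo-C14-HSL and acetone) under the *ali1* label and 23.5 and 23.4 FPKM under the Col-0 label. *NRT2.1*, *CASP1*, *RCI3* and *PRX64* reached a mean of 1 FPKM in each table, with *CASP1* at 15.4 and 9.02 FPKM under the *ali1* label and 6.85 and 10.0 FPKM under the Col-0 label. *PIN2*, *RHS19* and *COBL9* did not, and the root hair gene *COBL9* stayed at or below 0.0412 FPKM in every group.

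UGTs move a sugar, most often glucose, from a nucleotide donor such as UDP-glucose to a small acceptor molecule. In plants the acceptors include salicylic acid and other defence acids, auxins, cytokinins, abscisic acid, flavonols, hydroxycinnamic acids, monolignols and foreign compounds, and the sugar usually makes the acceptor more soluble and inactive or fit for storage in the vacuole. The plant enzymes carry a conserved signature stretch near the C terminus, which holds the donor sugar.

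No UGT locus that passed the filter differed by 2-fold between oxo-C14-HSL and acetone under either label. Under the *ali1* label 39 UGT loci passed the filter and 0 were called in either direction, where 0.352% of all 16768 loci were called higher and 0.543% lower. Under the Col-0 label 42 passed and 0 were called, where 1.58% of all 16858 loci were called higher and 0.415% lower. Against background shares this small, a count of 0 among 39 or 42 loci is no result about the family. At a lower limit of 1.5-fold, 2 UGT loci (4.76% of 42) were higher under the Col-0 label, the flavonol gene *UGT78D1* and the methyl salicylate gene *UGT71C3*, against 6.39% of all loci, and 0 were lower, against 1.75%. Under the *ali1* label 0 were past 1.5-fold, against 1.04% of all loci higher and 2.13% lower.

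The family as a whole was expressed at similar levels in the 4 groups. The summed level of the 54 loci was 952 FPKM with oxo-C14-HSL and 1039 FPKM with acetone under the *ali1* label, and 1004 and 1107 FPKM under the Col-0 label. This was 0.131%, 0.141%, 0.14% and 0.147% of all FPKM in the same order. The oxo-C14-HSL sum was the lower one under each label. UGT genes left out by the rule or listed under another name are not in these sums, which therefore do not cover the whole family. *UGT74B1*, left out by the rule, had 118.0 and 166.3 FPKM under the *ali1* label and 141.1 and 127.0 FPKM under the Col-0 label. Within the 54 loci expression was concentrated in few, and the 5 highest held 44.4% to 47.3% of their summed FPKM in each group. At the other end 12 loci passed the filter in neither table, 9 were below 0.5 FPKM in all 4 groups, and *UGT84B1* and *UGT84B2* were listed at 0 throughout. The loci that passed in the Col-0 table but did not pass in that of the *ali1* label were *UGT74E2*, *UGT85A4* and the joint locus of *UGT85A3* and *UGT85A5*.

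**Figure D1:**
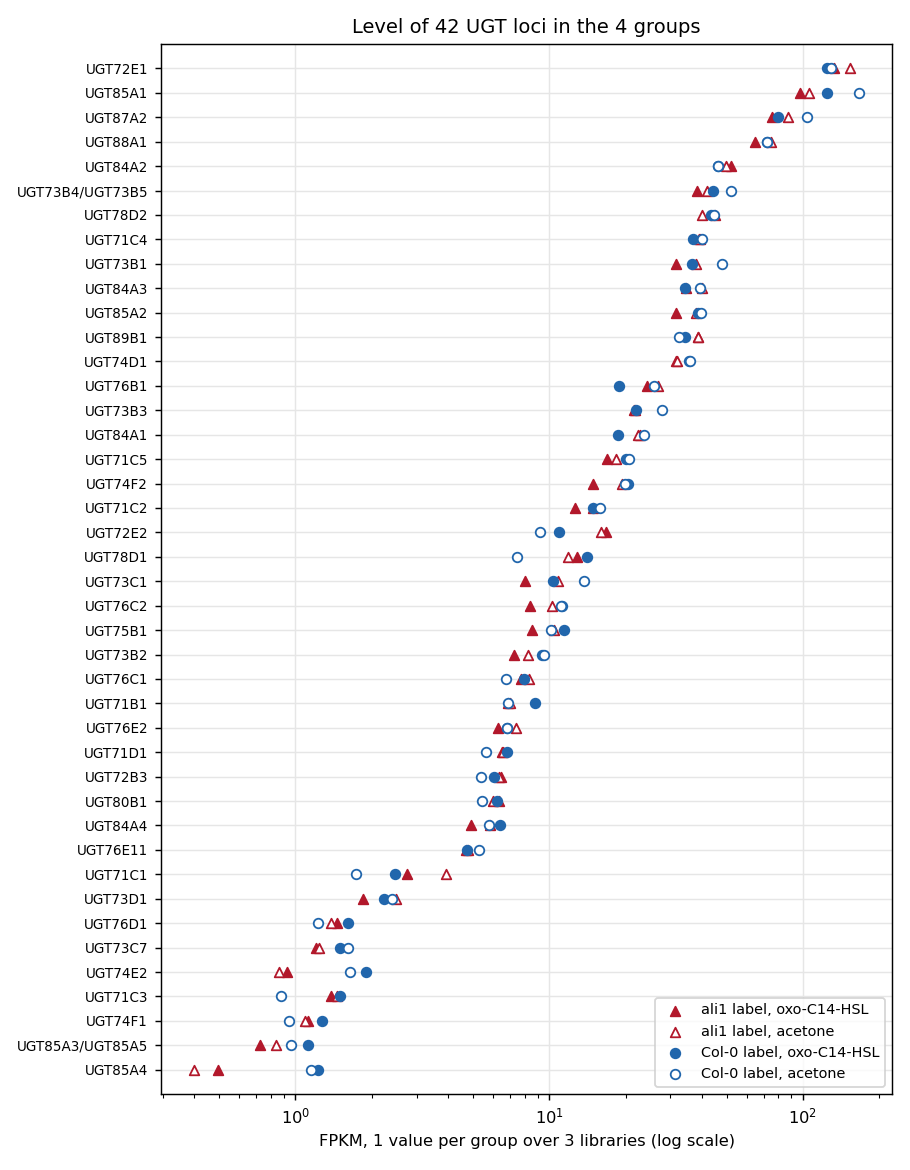
FPKM on a log axis of the 42 UGT loci with a mean of at least 1 FPKM in either table, ordered by mean level; triangles are libraries labelled ali1, circles libraries labelled Col-0, filled symbols oxo-C14-HSL and open symbols acetone, each 1 value per group. Levels run over more than 2 orders of magnitude between loci, and the 4 symbols of a locus lie close together, with UGT71C1, UGT78D1 and UGT85A4 among the wider rows.

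The most abundant transcript of the 54 loci over the 4 groups was *UGT72E1*, whose enzyme glucosylates coniferyl and sinapyl aldehyde. It had 132.5 FPKM with oxo-C14-HSL and 153.6 FPKM with acetone under the *ali1* label, and 124.1 and 128.7 FPKM under the Col-0 label. *UGT85A1*, which O-glucosylates the cytokinin trans-zeatin, came next with 97.6 and 105.6 FPKM under the *ali1* label and 124.1 and 166.6 FPKM under the Col-0 label. It was the highest of the 54 loci in the Col-0 acetone group only. *UGT87A2*, known for a role in flowering time, had 75.5 and 87.6 FPKM under the *ali1* label and 79.9 and 103.5 FPKM under the Col-0 label. *UGT88A1* had 64.7 and 75.2 FPKM under the *ali1* label and 72.1 and 72.2 FPKM under the Col-0 label. *UGT84A2*, which forms sinapoylglucose, had 52.3 and 49.6 FPKM under the *ali1* label and 46.3 and 46.1 FPKM under the Col-0 label. Of these 5 transcripts, *UGT84A2* was the one without a lower value after oxo-C14-HSL in either table.

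The flavonoid UGTs held the largest single ratio among the UGT loci past the filter. *UGT78D1*, the flavonol 3-O-rhamnosyltransferase, had 12.9 FPKM with oxo-C14-HSL and 11.9 FPKM with acetone under the *ali1* label, a log2 ratio of 0.12. Under the Col-0 label it had 14.1 FPKM with oxo-C14-HSL and 7.47 FPKM with acetone, a log2 ratio of 0.91. Of these 4 values the Col-0 acetone group was the low one, and the others lay within 11.9 to 14.1 FPKM. Its close relative *UGT78D2*, the flavonoid 3-O-glucosyltransferase, was higher in level and had 45.1 and 40.1 FPKM under the *ali1* label and 43.6 and 44.5 FPKM under the Col-0 label, log2 ratios of 0.17 and -0.03. *UGT78D3*, the flavonol 3-O-arabinosyltransferase, lies beside *UGT78D2* on chromosome 5 and reached at most 0.0707 FPKM.

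Read numbers could be estimated for loci with 1 transcript, because their FPKM values at low levels fell on whole multiples of 1 read (98.3%, 97%, 98.4% and 86.6% of low loci within 0.15 of a whole number in the 4 groups, in the order *ali1* oxo-C14-HSL, *ali1* acetone, Col-0 oxo-C14-HSL and Col-0 acetone). The estimate came to about 23500000, 23200000, 24200000 and 22600000 fragments per library in that order. For *UGT78D1* it gave 1556 reads with oxo-C14-HSL and 1408 with acetone under the *ali1* label, summed over libraries, and a log2 ratio without pseudocount of 0.12 with a 95% interval of 0.02 to 0.23. Under the Col-0 label it gave 1750 and 863 reads and 0.92, with an interval of 0.80 to 1.04. These intervals cover counting error only, and the spread between libraries is not known.

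The coding stretch of the UGT signature is shown for the UGT78D genes because they share it closely yet differ in donor sugar and, in these seedlings, in level. Each line gives 44 codons read from the reference sequence TAIR10.1 on the coding strand, with capitals at the positions that are not the same in all 3 genes. *UGT78D1* lies at chr1:10814612-10816615 on the plus strand, and *UGT78D2* at chr5:5607788-5609589 and *UGT78D3* at chr5:5603133-5604893 lie on the minus strand, each with 1 intron.
UGT78D1: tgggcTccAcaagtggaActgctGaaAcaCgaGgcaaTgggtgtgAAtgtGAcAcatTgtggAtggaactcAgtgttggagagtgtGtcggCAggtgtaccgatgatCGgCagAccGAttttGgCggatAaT
UGT78D2: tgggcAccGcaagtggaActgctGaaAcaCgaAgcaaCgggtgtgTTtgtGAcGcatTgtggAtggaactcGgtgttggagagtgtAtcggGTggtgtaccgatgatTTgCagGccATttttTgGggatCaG
UGT78D3: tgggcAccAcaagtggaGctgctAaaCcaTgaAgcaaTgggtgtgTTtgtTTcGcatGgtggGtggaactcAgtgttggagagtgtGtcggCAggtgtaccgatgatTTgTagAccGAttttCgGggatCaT
Across these bases 103 were shared by all 3 genes and 29 varied, and any pair had 112 or 113 identical bases. The last codon, at the end of the signature, was aat in *UGT78D1*, cag in *UGT78D2* and cat in *UGT78D3*. In the family 54 of 56 UGT genes held a stretch that fits this pattern, and it started at 67.3% to 74.4% of the coding sequence.

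The 250 bases before the annotated start of *UGT78D1* and *UGT78D2* are shown because these close relatives differ in their ratio under the Col-0 label. Windows are from TAIR10.1, chr1:10814362-10814611 on the plus strand for *UGT78D1* and chr5:5609590-5609839 on the minus strand for *UGT78D2*, and capitals mark the W-box core TTGAC, the element that WRKY factors bind, searched on both strands.
UGT78D1: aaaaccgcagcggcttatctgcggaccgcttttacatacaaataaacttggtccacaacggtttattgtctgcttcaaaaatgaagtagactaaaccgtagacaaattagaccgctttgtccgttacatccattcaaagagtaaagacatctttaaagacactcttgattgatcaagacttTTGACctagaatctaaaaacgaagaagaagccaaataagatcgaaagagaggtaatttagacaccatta
UGT78D2: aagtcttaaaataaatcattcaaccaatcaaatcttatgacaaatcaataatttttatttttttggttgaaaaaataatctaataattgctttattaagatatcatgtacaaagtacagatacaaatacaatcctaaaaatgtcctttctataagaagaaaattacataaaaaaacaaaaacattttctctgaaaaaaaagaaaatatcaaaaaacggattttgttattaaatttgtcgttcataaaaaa
The *UGT78D1* window held 1 such core, 69 bases before the start, and the *UGT78D2* window held none. The core is common, in 30 of 56 UGT windows (53.6%) and in 44.9% of the 27443 windows of this length in the reference annotation. TGACG, the core of the as-1 element bound by TGA factors, can overlap it by its last bases and stood in 21.4% of UGT windows and 18.6% of all windows. CACGTG, the G-box, stood in 10.7% of UGT windows and 6.49% of all windows. A match is a description of the letters in the window and says nothing on binding.

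UGTs that act on salicylic acid and related defence acids showed ratios of both signs. *UGT71C3*, which glucosylates methyl salicylate, had 1.38 FPKM with oxo-C14-HSL and 1.46 FPKM with acetone under the *ali1* label, a log2 ratio of -0.08. Under the Col-0 label it had 1.496 and 0.874 FPKM, a log2 ratio of 0.71. As for *UGT78D1*, the Col-0 acetone value was the low one of the 4. At this level the estimate was 152 and 158 reads under the *ali1* label and 170 and 92 under the Col-0 label, with a counting interval of 0.41 to 1.14 around a Col-0 log2 ratio of 0.78 without pseudocount. Its 3' end overlaps that of *UGT71C4*, 29.9 times higher in mean level, on the other strand by 15 bases, and reads within that overlap cannot be assigned without strand.

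*UGT74F1*, which forms the salicylic acid glucoside, had 1.12 and 1.09 FPKM under the *ali1* label and 1.28 and 0.944 FPKM under the Col-0 label, log2 ratios of 0.03 and 0.40. *UGT74F2*, its tandem neighbour on chromosome 2, which forms the glucose ester, stood 16.9 times higher in level. It had 14.9 and 19.3 FPKM under the *ali1* label and 20.50 and 19.96 FPKM under the Col-0 label, log2 ratios of -0.38 and 0.04. Here the *ali1* oxo-C14-HSL group was the low one. *UGT76B1*, which glucosylates isoleucic acid, salicylic acid and N-hydroxypipecolic acid and so takes part in turning immune signals off, had 24.3 and 26.9 FPKM under the *ali1* label and 18.8 and 25.8 FPKM under the Col-0 label. Its log2 ratios of -0.15 and -0.45 put it lower after oxo-C14-HSL in both tables, and the Col-0 ratio was the lowest of the 42 UGT loci that passed the filter in that table. *UGT76D1*, which acts on dihydroxybenzoic acids, had ratios of 0.08 and 0.38, and *UGT75B1*, which acts on benzoates, had -0.29 and 0.17 (*ali1* and Col-0 label).

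Across the 6 defence acid UGTs the median log2 ratio was -0.11 under the *ali1* label, with 4 below 0, and 0.27 under the Col-0 label, with 5 above 0 and *UGT76B1* as the exception. The median over all loci was 0.01 and -0.02 under these labels. Of these, *UGT71C3* and *UGT74F1* passed the Col-0 filter only through their higher oxo-C14-HSL value, and the other 4 loci had a Col-0 median of 0.10. The 6 included 3 loci below 2 FPKM, and under the Col-0 label low loci of all kinds tended to have positive ratios, as described further on.

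Of the subfamilies with more than 1 locus past the filter, UGT73 alone had ratios of 1 sign throughout. Its enzymes include several known from stress, pathogen and xenobiotic responses, and 7 of its 9 loci passed the filter, all 7 with a ratio below 0 under both labels. This subfamily was singled out after its values were seen. Of the loci that passed in both tables, 27% of all loci and 48.7% of UGT loci were also below 0 in both. Its median log2 ratio was -0.18 under the *ali1* label and -0.24 under the Col-0 label. By role instead of subfamily, the stress and xenobiotic group had 5 loci, among them *UGT71C1* of another subfamily. All 5 were below 0 under the *ali1* label. Under the Col-0 label 4 were below 0 and *UGT71C1* was above, at 0.49. *UGT73C1*, which glucosylates metabolites of trinitrotoluene, had 8.03 and 10.8 FPKM under the *ali1* label and 10.3 and 13.7 FPKM under the Col-0 label, log2 ratios of -0.42 and -0.41. *UGT73B1* had 31.7 and 37.8 FPKM under the *ali1* label and 36.4 and 47.8 FPKM under the Col-0 label, log2 ratios of -0.25 and -0.39. *UGT73B3*, induced by avirulent bacteria, had 21.7 and 21.7 FPKM under the *ali1* label and 22.0 and 27.8 FPKM under the Col-0 label, so its ratio below 0 was as small as -0.01 under the *ali1* label. In each of these 3 genes the Col-0 acetone group was the highest of the 4. *UGT73D1* had ratios of -0.41 and -0.09, *UGT73B2*, a flavonol glucosyltransferase, -0.18 and -0.02, and *UGT73C7* -0.04 and -0.10. *UGT73C5*, listed under the name *DOGT1* and so not among the 54 loci, had 15.5 and 23.7 FPKM under the *ali1* label and 19.9 and 24.9 FPKM under the Col-0 label, log2 ratios of -0.61 and -0.32. *UGT73C6*, at a mean just outside the filter, was below 0 under the *ali1* label and above 0 under the Col-0 label, with ratios of -0.57 and 0.50.

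*UGT73B4* (chr2:6761635-6763500) lies within the annotated span of *UGT73B5* (chr2:6758430-6763501) on the plus strand, and both are 1 locus in the tables, with 38.33 and 42.04 FPKM under the *ali1* label and 44.1 and 52.0 FPKM under the Col-0 label and log2 ratios of -0.13 and -0.24. Their longest shared coding run is shown because reads from it cannot be assigned to either gene at a read length of 100 bases. *UGT73B4* and *UGT73B5*, 159 bases on the plus strand, read from TAIR10.1, all shared and so all in lower case:
UGT73B4: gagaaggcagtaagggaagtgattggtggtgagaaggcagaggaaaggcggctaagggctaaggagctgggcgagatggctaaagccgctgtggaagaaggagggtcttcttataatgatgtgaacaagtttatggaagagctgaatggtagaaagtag
Among 1540 pairs of UGT genes this was the only pair with a shared run of at least 100 bases, and 7 pairs had one of at least 50 bases. The run ends with the last coding base of *UGT73B4*, where the annotated spans of both genes overlap. It may therefore be the same bases of the genome counted in both gene models and not a second copy, which was not checked.

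Of the UGT loci that passed the filter in both tables, *UGT71C1* had the largest difference between labels. It had 2.74 FPKM with oxo-C14-HSL and 3.93 FPKM with acetone under the *ali1* label, and 2.47 and 1.73 FPKM under the Col-0 label. Among loci past the filter its log2 ratios were the lowest under the *ali1* label, -0.50, and the third highest under the Col-0 label, 0.49. The acetone groups were the outer values, the *ali1* one highest and the Col-0 one lowest, with the oxo-C14-HSL groups between them. Estimated reads were 349 and 492 under the *ali1* label and 323 and 211 under the Col-0 label, and the counting intervals of the log2 ratios without pseudocount were -0.72 to -0.32 and 0.27 to 0.77. Its enzyme glucosylates phenolic compounds in vitro, and its neighbours in a run of 3 genes on chromosome 2, *UGT71C2* and *UGT71D1*, had smaller ratios, of -0.23 and -0.02 under the *ali1* label and -0.10 and 0.28 under the Col-0 label.

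**Figure D2:**
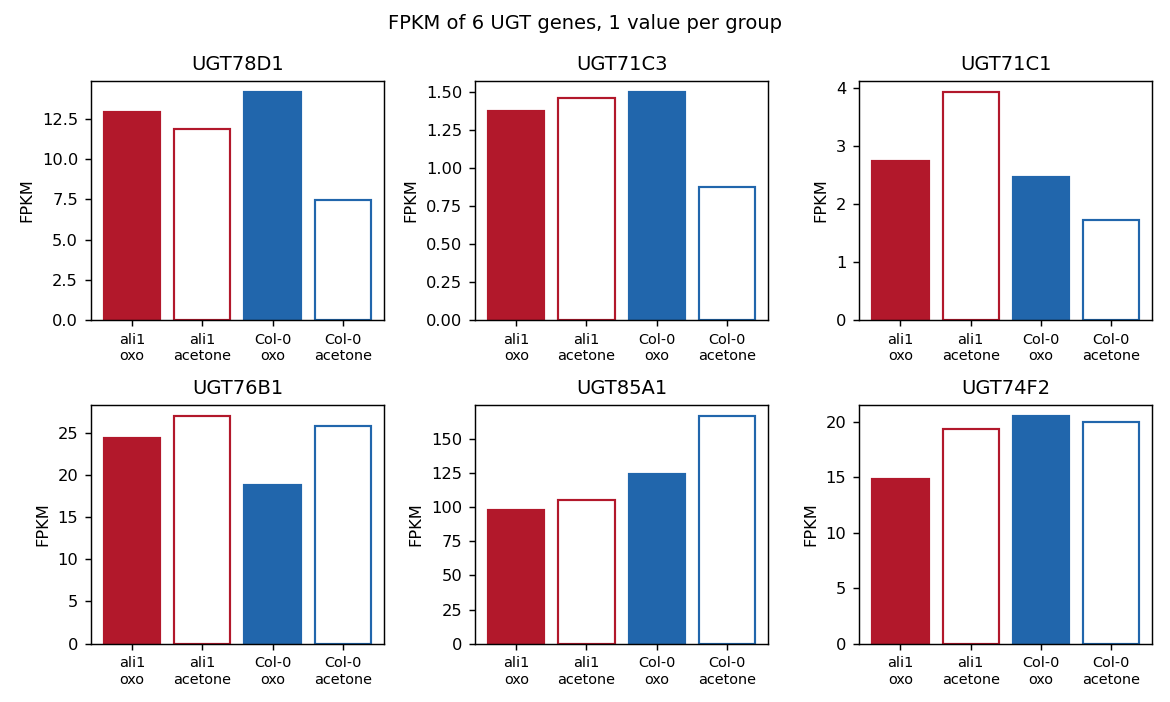
FPKM of 6 UGT genes in the 4 groups, with 1 bar per group (1 value over 3 libraries, no error available), red for libraries labelled ali1 and blue for Col-0, filled for oxo-C14-HSL and open for acetone; each panel has its own axis from 0. The Col-0 acetone bar is the lowest for UGT78D1 (7.47), UGT71C3 (0.874) and UGT71C1 (1.73) and the highest for UGT85A1 (166.6), while the ali1 oxo-C14-HSL bar is the lowest for UGT74F2 (14.9) and the Col-0 oxo-C14-HSL bar the lowest for UGT76B1 (18.8).

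Cytokinin UGTs differed in sign under the Col-0 label. *UGT85A1*, with the levels given above, had log2 ratios of -0.11 under the *ali1* label and -0.42 under the Col-0 label. *UGT76C1* and *UGT76C2*, tandem genes on chromosome 5 that N-glucosylate cytokinins, had -0.10 and -0.28 under the *ali1* label and 0.23 and 0.01 under the Col-0 label. All 3 were below 0 under the *ali1* label.

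Of the auxin UGTs, *UGT74D1* was the abundant one, with 31.49 and 32.01 FPKM under the *ali1* label and 35.6 and 35.8 FPKM under the Col-0 label, and its ratios were -0.02 and -0.01. *UGT74E2*, which acts on indole-3-butyric acid, had 0.929 and 0.861 FPKM under the *ali1* label and 1.90 and 1.64 FPKM under the Col-0 label. *UGT84B1*, which forms the ester of indole-3-acetic acid, was listed at 0. Of the abscisic acid UGTs, *UGT71C5* had ratios of -0.11 and -0.04 and *UGT71B8* did not pass the filter. *UGT76E2*, which acts on 12-hydroxyjasmonic acid, had 6.28 and 7.42 FPKM under the *ali1* label and 6.82 and 6.83 FPKM under the Col-0 label, and its tandem neighbour *UGT76E1* was at most at 0.0431 FPKM. The sterol glucosyltransferase *UGT80B1* had ratios of 0.08 and 0.19.

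Phenylpropanoid UGTs were split in sign, 3 above and 3 below 0 under each label, with medians of -0.09 under the *ali1* label and -0.02 under the Col-0 label. The hydroxycinnamate ester genes *UGT84A1*, *UGT84A3* and *UGT84A4* form a run on chromosome 4 and differed 6.46-fold in mean level. *UGT84A3* had 34.5 and 40.1 FPKM under the *ali1* label and 34.3 and 39.3 FPKM under the Col-0 label, with almost equal ratios of -0.22 and -0.20. *UGT84A1* had 22.8 and 22.3 FPKM under the *ali1* label and 18.7 and 23.5 FPKM under the Col-0 label, ratios of 0.03 and -0.33, and *UGT84A4* had -0.25 and 0.15. *UGT72E2*, the monolignol gene, had 16.69 and 16.04 FPKM under the *ali1* label and 10.95 and 9.23 FPKM under the Col-0 label. Its values were thus set apart by label more than by pretreatment. *UGT72E3*, also a monolignol gene, was under 0.3 FPKM in all groups.

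The grouping by acceptor or role listed none for 21 UGT loci, and *UGT87A2*, with its role in flowering time, was among these. Of the 21 loci, 13 passed under the *ali1* label and 15 under the Col-0 label, with medians of -0.04 and -0.03. Among them *UGT73D1* and *UGT73B1* had the lowest ratios under the *ali1* label, and *UGT73B1* and *UGT87A2* under the Col-0 label. *UGT71B1* had the highest Col-0 ratio, with 6.87 and 7.01 FPKM under the *ali1* label and 8.81 and 6.89 FPKM under the Col-0 label, ratios of -0.03 and 0.35, and the Col-0 oxo-C14-HSL group stood above the other groups. *UGT71C4* had ratios of 0.01 and -0.13, *UGT89B1* 0.00 and 0.08, *UGT85A2* -0.25 and -0.03, *UGT72B3* 0.03 and 0.17, and *UGT76E11* -0.02 and -0.15. The loci of *UGT89B1*, *UGT85A2* and *UGT76C1* also hold gene names that the rule does not match, and their values cannot be split. The loci that passed in neither table were *UGT71B5*, *UGT71B8*, *UGT72E3*, *UGT73C2*, *UGT73C6*, *UGT75B2*, *UGT76E1*, *UGT76E12*, *UGT78D3*, *UGT84B1*, *UGT84B2* and *UGT85A7*, and of these *UGT76E12*, with 0.751 and 1.18 FPKM under the Col-0 label, and *UGT73C6* came nearest to the filter.

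**Figure D3:**
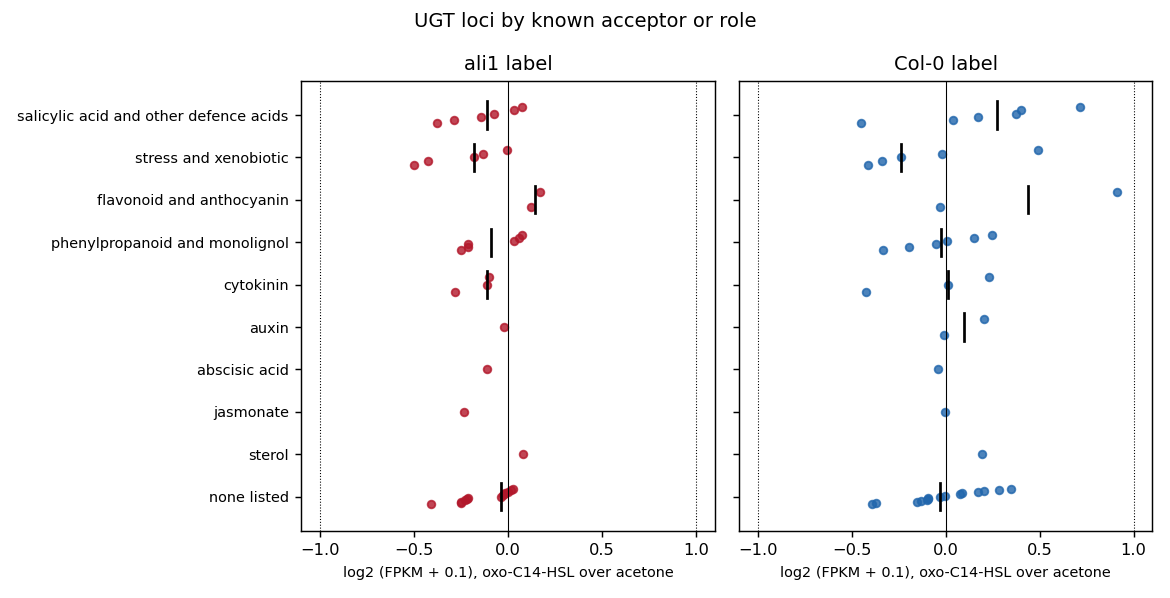
Log2 ratio of FPKM + 0.1, oxo-C14-HSL over acetone, for UGT loci that passed the filter, grouped by known acceptor or role, libraries labelled ali1 on the left and Col-0 on the right; points are loci, black bars group medians (for groups with more than 1 locus) and dotted lines mark 2-fold. No point reaches a dotted line, and the defence acid group has its median at -0.11 on the left and 0.27 on the right.

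Taken over the loci that passed, the *ali1* ratios had a median of -0.11 with quartiles of -0.23 and 0.01, and 28 of 39 (71.8%) were below 0, where the median of all loci was 0.01 and 46.7% were below 0. Their size was ordinary, with 84.6% of UGT loci and 84.5% of all loci within 1.2-fold. Under the Col-0 label the UGT median was 0.00 with quartiles of -0.12 and 0.20, and 22 of 42 (52.4%) were below 0, where the median of all loci was -0.02 and 53.2% were below 0. Within 1.2-fold were 66.7% of UGT loci and 70.4% of all loci. Beside the *ali1* ratios, 7 of the 8 green leaf markers were below 0 with a median of -0.09 and a sum of 25398 FPKM with oxo-C14-HSL and 27375 FPKM with acetone. With the Col-0 label 6 leaf markers had positive ratios, the median was 0.14 and the sums were 28794 and 26609 FPKM. Of the root markers 4 passed, 2 above and 2 below 0 under each label, with medians of 0.32 under the *ali1* label and 0.11 under the Col-0 label and ratios between -1.28 and 0.95 and between -0.54 and 0.61. The part of these markers in the UGT ratios was not tested, and in seedlings fewer cells of a type and less RNA per cell cannot be told apart.

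Ratios under the Col-0 label went with level. For UGT loci the Spearman correlation of the log2 ratio with the mean level was -0.62 over 42 loci, and for all loci it was -0.35. Between 1 and 10 FPKM the 18 UGT loci had a median of 0.20 and 5 were below 0, while 7292 loci of all kinds had a median of 0.10. At 10 FPKM or more the 24 UGT loci had a median of -0.05 and 17 were below 0, and 9566 loci of all kinds had -0.07. Under the *ali1* label both correlations were 0.00 to 0.01, and the UGT medians were -0.09 between 1 and 10 FPKM and -0.11 above. The points of each correlation come from the same libraries and normalization, so it is given as a description. *UGT71C3* and *UGT71C1* lie in the low range, where positive Col-0 ratios were common, and *UGT78D1* lies at its upper edge with a mean of 10.8 FPKM. The filter also let 3 UGT loci into the Col-0 table with acetone values below 1 FPKM, *UGT71C3*, *UGT74F1* and the joint locus of *UGT85A3* and *UGT85A5*, all with positive ratios.

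**Figure D4:**
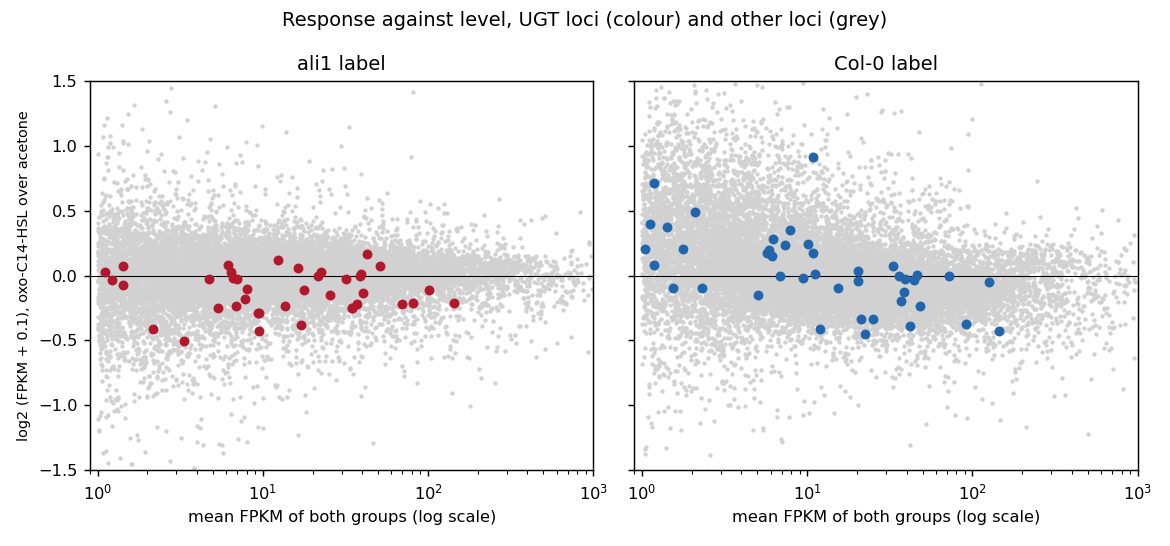
Log2 ratio of FPKM + 0.1, oxo-C14-HSL over acetone, against the mean FPKM of both groups on a log axis, libraries labelled ali1 on the left and Col-0 on the right, UGT loci in colour and other loci in grey; loci beyond the axes are not drawn. On the right the low loci, UGT and other, spread to positive ratios (UGT median 0.20 between 1 and 10 FPKM) and the abundant UGT loci lie mostly below 0, while on the left UGT loci of all levels lie mostly below 0.

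Setting the labels side by side, 39 UGT loci passed in both tables. The difference of log2 ratios, *ali1* minus Col-0 label, had a median of -0.14 over these loci and 0.03 over 16530 loci of all kinds, and 27 of 39 UGT loci (69.2%) had the lower ratio under the *ali1* label, against 45.5% of all loci. In sign, 19 UGT loci (48.7%) were below 0 under both labels, against 27% of all loci. Of the others, 8 were above 0 under both, 9 were above 0 under the Col-0 label only and 3 under the *ali1* label only. The ratios under the labels were weakly related, with a Spearman correlation of 0.26 over the 39 loci and 0.10 over all loci. The largest differences towards a lower ratio under the *ali1* label were those of *UGT71C1* (-0.995), *UGT78D1* (-0.79), *UGT71C3* (-0.79), *UGT75B1* (-0.46) and *UGT74F2* (-0.42). In the other direction they were smaller, with *UGT84A1* (0.36), *UGT73B3* (0.33), *UGT85A1* (0.31), *UGT76B1* (0.30) and *UGT78D2* (0.20). None of these differences could be tested.

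**Figure D5:**
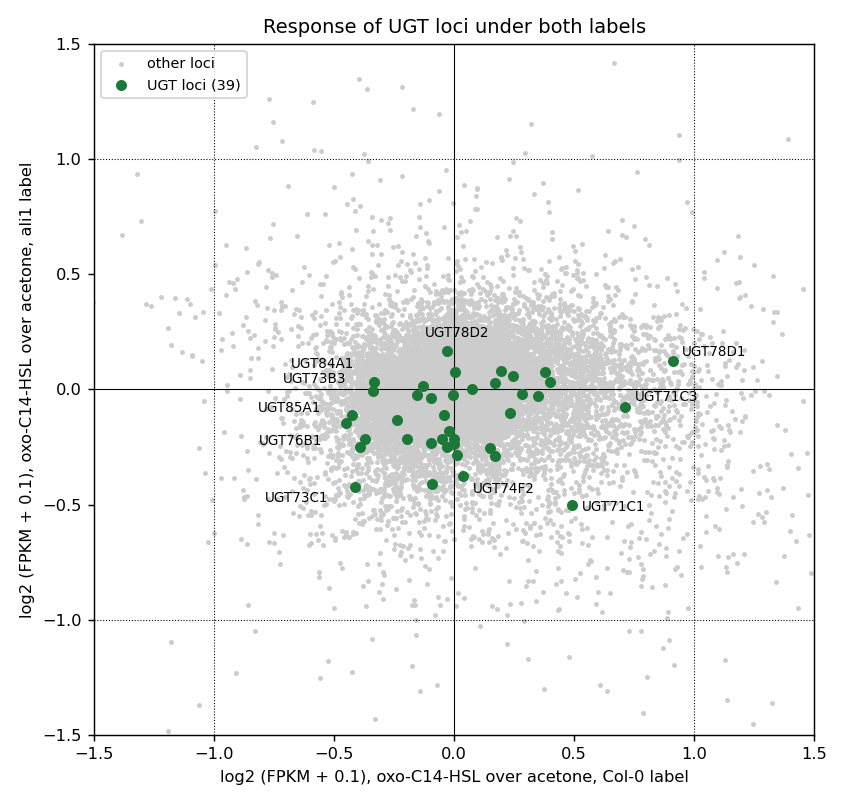
Log2 ratio of FPKM + 0.1, oxo-C14-HSL over acetone, under the Col-0 label (x axis) and the ali1 label (y axis) for the 39 UGT loci (green) and other loci (grey) that passed in both tables; dotted lines mark 2-fold, and 90 loci beyond the axes are not drawn. All UGT points lie inside the dotted lines, UGT78D1 and UGT71C3 lie farthest to the right, and UGT71C1 lies at the lower right.

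Levels after acetone alone, *ali1* over Col-0 label and centred on the median of all loci, differed by at least 2-fold for 1 UGT locus of 39, *UGT71C1* (log2 1.19), where 1.11% of all loci were 2-fold higher and 0.345% lower. At 1.5-fold 4 UGT loci (10.3%) were higher, *UGT71C1*, *UGT72E2* (0.84), *UGT71C3* (0.72) and *UGT78D1* (0.71), against 4.56% of all loci, and *UGT85A1* was lower (-0.61), against 1.22%. After oxo-C14-HSL no UGT locus was 2-fold apart, where 0.296% of all loci were higher and 0.696% lower, and *UGT72E2* (0.62) alone was past 1.5-fold, where 1.26% of all loci were higher and 3.1% lower. The same acetone values enter these level differences and the ratios above, so they are not separate evidence. For *UGT78D1*, *UGT71C3* and *UGT71C1* the oxo-C14-HSL groups of the labels differed by -0.11, -0.09 and 0.17 on this scale.

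The genome places the UGT genes in clusters. Of the 56 genes, 16, 15, 10, 7 and 8 lie on chromosomes 1 to 5, and 35 lie in 14 tandem runs. A run was counted among these 56 genes only, with at most 1 other protein-coding gene between neighbours. UGT genes that the rule does not match were not counted as part of a run, so runs in the genome may be longer. Coding length was 1317 to 1848 bases with a median of 1442, and 28 genes have no intron and 25 have 1. Neighbours in a run differed widely in level. In the run of *UGT71C3*, *UGT71C4* and *UGT71C5* on chromosome 1 the highest mean was 29.9 times the lowest, and in that of *UGT76C1* and *UGT76C2* it was 1.33 times. In the UGT85A run, *UGT85A1* had a mean of 123.5 FPKM and *UGT85A7* of 0.0470 FPKM. Tandem neighbours also differed in ratio, as with *UGT71C1* and *UGT71C2* above.

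Genes around the UGT reaction also had median ratios near 0. Of 28 genes that supply UDP-sugars, 27 were found and 24 passed in each table. Their medians were 0.02 under the *ali1* label and 0.01 under the Col-0 label. Past 1.5-fold there were 0, where 1.04% of all loci were higher and 2.13% lower under the *ali1* label. Under the Col-0 label 6.39% of all loci were higher and 1.75% lower, so a count of 0 among 24 is no result about these genes. *RHM1*, which makes UDP-rhamnose, the donor of *UGT78D1*, had 97.3 and 90.9 FPKM under the *ali1* label and 95.9 and 84.2 FPKM under the Col-0 label. *UGP1*, which makes UDP-glucose, had ratios of 0.15 and 0.39. Of 14 genes that take glucosides and glucose esters further, 11 and 12 passed, with medians of 0.03 and 0.10. Past 2-fold there were 0, where 0.352% of all loci were higher and 0.543% lower under the *ali1* label. Under the Col-0 label these shares were 1.58% and 0.415%. Past 1.5-fold higher was a single gene of 11 under the *ali1* label, where 1.04% of all loci were, and of 12 under the Col-0 label, where 6.39% were. These were the acyltransferase-like gene *SCPL10* under the *ali1* label (0.69) and the beta-glucosidase gene *BGLU18*, which releases abscisic acid from its glucose ester, under the Col-0 label (0.76).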

How the data were processed

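The series holds 12 libraries of seedling mRNA (oligo-dT enrichment, DNBseq, 100 bp single-end reads). Per the methods, the authors aligned reads with RNAStar, and built and compared transcripts with Cufflinks 2.2.1.0, cuffmerge and Cuffdiff 2.2.1.5 on TAIR10 (versions from the submitters' processing notes). The authors deposited FPKM as a single value for each group, normalized by the authors within each of 2 tables. The tables also hold the authors' fold changes, test statistics, p-values and q-values, which were not used.

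Groups follow sample titles. Log2 ratios used a pseudocount of 0.1 FPKM and a filter at a mean of 1 FPKM. Levels across labels were centred on the median of all loci (shifts of -0.045 after acetone and -0.02 after oxo-C14-HSL). Reads were estimated from FPKM and transcript length less 200 bases, an assumed fragment length, and intervals are normal intervals of the log ratio of 2 counts. Counting and ratio steps were tested on simulated data. Sequences, positions and motifs come from RefSeq TAIR10.1, whose chromosome accessions equal those of the tables. Named genes were those past a threshold, up to 10 with the largest ratio each way per table, the 5 most abundant, the 5 with the largest difference each way, those with a listed role or in the same run or subfamily, and *ALI1*. Alternatives covered pseudocount, filter, centring, the running median over level, joint loci and the fold limit. Members and gene lists were chosen with earlier results of these data known. Analysis used Python 3.11.15, numpy 2.4.6, pandas 2.3.3 and matplotlib 3.10.9.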

Additional observations from a re-analysis of the deposited data

Results flagged for a closer look

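*UGT71C1* had log2 ratios of opposite sign under the labels, -0.50 under the *ali1* label and 0.49 under the Col-0 label, a difference of -0.995. The difference was not tested, because each group has 1 value.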

How the results depend on the processing

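The counts of UGT loci past 2-fold were 0 in each direction and label, and with no filter 1 locus was higher under the Col-0 label, *UGT72E3*, at 0.298 FPKM with oxo-C14-HSL and 0.0634 FPKM with acetone. With the limit at 1.5-fold, 2 were higher under the Col-0 label. No other alternative moved a count. Over all alternatives the median log2 ratio ranged between -0.123 and -0.063 under the *ali1* label and between -0.022 and 0.051 under the Col-0 label, where its sign is not fixed, and the median difference between labels ranged between -0.172 and -0.126. No paired analysis was possible because the tables hold no values per library, and for the same reason no library could be left out. Levels well below 1 FPKM rest on few reads, and ratios of such loci carry little information. *UGT72E3* had an estimated 35 reads with oxo-C14-HSL and 7 with acetone under the Col-0 label, summed over libraries. Nearer to the filter, *UGT73C6* had 74 and 113 reads under the *ali1* label and 113 and 71 under the Col-0 label.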

Other observations

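Of 6 UGT genes that the tables list under another name, 5 passed the filter. *UGT72B1* (listed as *GT72B1*), which conjugates chloroanilines and glucosylates monolignols, had 74.0 FPKM with oxo-C14-HSL and 79.4 FPKM with acetone under the *ali1* label, and 51.6 and 74.7 FPKM under the Col-0 label. Its log2 ratios were -0.10 and -0.53, and the Col-0 oxo-C14-HSL group was the low one. *UGT79B1* (listed as *UF3GT*), which adds xylose to anthocyanins, had 5.10 and 3.03 FPKM under the *ali1* label and 6.59 and 6.30 FPKM under the Col-0 label. Its ratios were 0.73 and 0.06, and under the *ali1* label its acetone group was the low one. Under the *ali1* label *UGT79B1* was thus past 1.5-fold higher, where 1.04% of all loci were, and *UGT73C5* (-0.61), listed as *DOGT1*, was past 1.5-fold lower, where 2.13% of all loci were. In the libraries labelled Col-0 none of these 5 reached 1.5-fold, where 6.39% of all loci were higher and 1.75% lower. The sterol glucosyltransferase *UGT80A2* (listed as *SGT*) had ratios of 0.02 and -0.11, the galactolipid synthase gene *UGT81A1* (listed as *MGD1*) had 0.14 and 0.11, and *UGT79B6*, known from pollen, was listed at 0.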
